A study of Mus musculus with 4 samples.

Results

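Alveolar fibroblasts were examined in single nuclei of mouse lung from 2 wild-type (WT) mice and 2 mice of the VEcad-TRF2DN-Tg strain (Tg), all of strain C57/BL6J. Tg mice carry a dominant-negative form of the telomere-binding protein TRF2 under the vascular endothelial cadherin promoter, which directs it to endothelial cells (ECs), so that the fibroblasts examined here are not the targeted cells. All mice were male, were 8 to 9 weeks old per the labels, and were exposed to chronic hypoxia, so that neither group was kept in normoxia. A nucleus was chosen by its unique molecular identifiers (UMIs, counted RNA molecules). It needed 1500 or more UMIs, 5 or more UMIs from at least 3 of the 7 genes Itga8, Scube2, Adra1a, Fgfr4, Tmem117, Slc7a10 and Chst8, at most 2 UMIs of the immune gene Ptprc, at most 3 in total from the EC genes Pecam1, Cdh5, Tek and Ptprb, and fewer than 3 in total from the adventitial fibroblast genes Pi16, Scara5 and Ebf2. Of 134745 barcodes with 1500 or more UMIs in the 4 mice, 656 were chosen, which is 0.487%. WT replicates 1 and 2 gave 103 and 125 nuclei, and Tg replicates 1 and 2 gave 249 and 179. Where values of single mice follow, replicate 1 stands before replicate 2.

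Alveolar fibroblasts lie in the interstitium of the gas-exchange wall, next to alveolar epithelial cells and the capillary. They are known as PDGFRA-positive stromal cells that lay down collagen and elastin, store lipid and retinoid, and feed the epithelium and the vessels with growth factors such as FGF10, FGF7, WNT2 and angiopoietin-1. Fibroblasts around airways and large vessels (adventitial fibroblasts), pericytes and smooth muscle cells (SMCs) are other mesenchymal cells of the lung, and all of them contact or neighbour ECs.

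The libraries held 125261739 to 182014706 UMIs in all, and the chosen nuclei held 669324 and 714645 UMIs in WT and 866543 and 835675 in Tg. The median nucleus had 5513 and 4868 UMIs in WT and 3048 and 3713 in Tg, so that Tg nuclei were shallower and more of them were summed. The median share of mitochondrially encoded UMIs was 0.026% and 0.057% in WT and 0.266% and 0.279% in Tg. Barcodes with at least 500 and fewer than 1000 UMIs were taken as droplets without a nucleus and served as the measure of free RNA, here called the droplets. Secretory airway genes made up 1.80% and 1.59% of it in WT and 13.0% and 4.72% in Tg, and from these genes 25.1 to 35.7% of the UMIs in the chosen nuclei were estimated to be free RNA. The airway gene Scgb1a1 alone was counted at 3939.8 and 5468 CPM in WT and 31096 and 10479 CPM in Tg (CPM, UMIs of the gene per 1000000 UMIs of the summed nuclei) and at 14521 and 15201 CPM in WT and 116973 and 41649.8 CPM in Tg in the droplets. No barcode was chosen in more than 1 mouse, although 176 to 475 barcodes with 1500 or more UMIs were shared by a pair of mice. The study describes the nuclei as coming from 2 mice of each genotype, so p-values measure the spread between mice together with that between libraries.

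The label was checked against 20 alveolar fibroblast genes that the selection did not use. Pdgfra, the receptor that marks these cells, was at 542 and 437 CPM in WT and 934 and 437 CPM in Tg, which is 17.1 to 30.7 times the CPM of the remaining barcodes of the same mouse. Npnt, the basement membrane ligand of integrin alpha 8, was at 986 and 875 CPM in WT and 694 and 728 CPM in Tg and exceeded the remaining barcodes 3.12 to 3.84 times. Each of the 4 mice thus showed both genes above its own other barcodes, and Tg replicate 1 had the highest Pdgfra level. The lung mesenchyme transcription factor Tbx4 was 10.9 to 17.2 times as high, Meox2 15.1 to 24.9 times, Tcf21, a factor of lipofibroblasts, 5.83 to 14.7 times, and the ligand Wnt2 6.38 to 23.5 times. Col13a1, a transmembrane collagen that names these cells in mouse lung, was at 163 and 78.4 CPM in WT and 134 and 108 CPM in Tg (20.3 to 24.1 times), and Limch1, an actomyosin regulator, at 3353 and 3229.6 CPM in WT and 2869 and 3381 CPM in Tg (3.27 to 4.799 times). Inmt, an indolethylamine methyltransferase, was 8.305 to 12.3 times and the scaffold gene Macf1 5.34 to 6.58 times as high. Some of the 20 did not set the nuclei apart. Foxf1, a mesenchymal and EC factor, was at 0.379 to 1.08 times the remaining barcodes. Ces1d, a lipid hydrolase, was at 0.675 to 0.808 times and Gpc3, a proteoglycan, at 0.984 to 2.05 times. Nkx2-3 had 0 UMIs, which allows up to 3 in each mouse, and Meox1 had 0 and 0 UMIs in WT and 2 and 1 in Tg. Against the other mesenchymal nuclei described below, Pdgfra was at 5.41 to 13.1 times and Meox2 at 2.54 to 6.47 times. There Tbx4 was at 0.857 to 2.78, Tcf21 at 0.814 to 2.20 and Wnt2 at 1.17 to 2.28 times. Tbx4 and Tcf21 thus did not set the nuclei apart from other mesenchymal nuclei in each mouse.

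**Figure D1:**
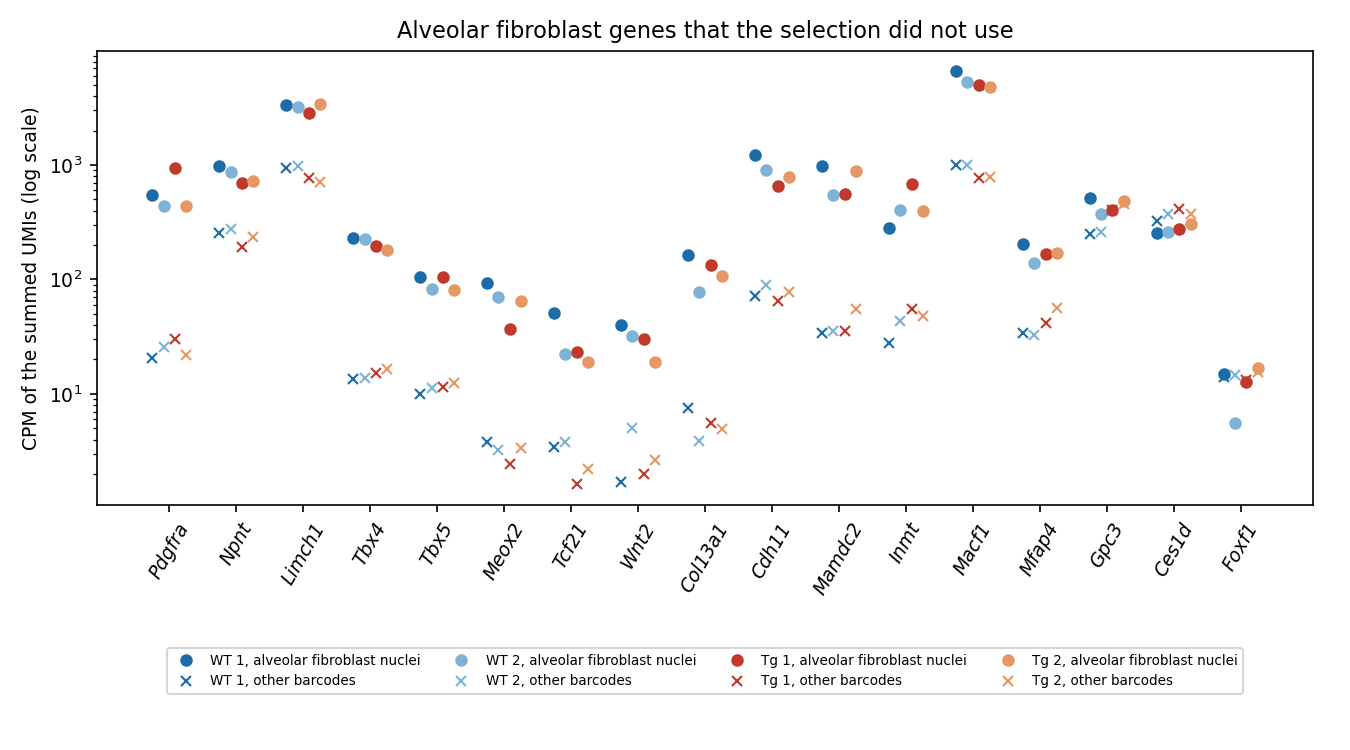
CPM on a log scale of alveolar fibroblast genes that the selection did not use. Circles are the summed alveolar fibroblast nuclei of each mouse and crosses its remaining barcodes with 1500 or more UMIs. Circles lie above the crosses for 14 of the 17 genes in each mouse and not for Gpc3, Ces1d and Foxf1.

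Depth moved the share of nuclei in which a gene was seen, so every nucleus was also thinned to 1500 UMIs and compared with up to 300 barcodes per mouse that passed a gate of alveolar type II (AT2) genes. At equal depth Pdgfra was seen in 49.5% and 38.4% of the chosen nuclei in WT and in 65.5% and 43.02% in Tg, against 1.33 to 3.67% of the AT2-gated barcodes. Before thinning the shares were 73.6 to 85.1%. Npnt was seen in 60.3 to 70.4% against 25.3 to 32.3%, and Tbx4 in 20.5 to 30.4% against 0.667 to 2%. Tcf21 was rare even in the chosen nuclei, at 2.79 to 6.796% against 0.333 to 1.33%. Ces1d was seen in 29.1 to 34.9% of the chosen nuclei and in 35.7 to 42.3% of the AT2-gated barcodes, and did not set the chosen nuclei apart. Intervals and floors on counts cover counting error only.

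Defining genes of other cells were counted as whole lists. The summed CPM of 8 EC genes was 178 and 242 CPM in WT and 307 and 327 CPM in Tg, below the 638 and 619 CPM in WT and 772 and 691 CPM in Tg of the droplets, and that of 8 immune genes was 252 and 754 CPM in WT and 435 and 561 CPM in Tg against 1012 and 2013 CPM in WT and 789.9 and 1242 CPM in Tg. Both lists share genes with the selection, which capped them. Pericyte genes summed to 23.9 and 22.4 CPM in WT and 53.1 and 32.3 CPM in Tg and SMC genes to 13.4 and 2.799 CPM in WT and 19.6 and 8.38 CPM in Tg. The droplets held 53.7 and 33.8 CPM in WT and 51.1 and 47.3 CPM in Tg of the pericyte genes and 12.02 and 9.92 CPM in WT and 26.9 and 21.2 CPM in Tg of the SMC genes. The nuclei lay below their droplets in both lists except for pericyte genes in Tg replicate 1 and SMC genes in WT replicate 1, and both Tg mice were above both WT mice for pericyte genes. AT2 genes summed to 1367 and 2039 CPM in WT and 6059 and 5087 CPM in Tg and club cell genes to 4503 and 6231 CPM in WT and 33060.1 and 11710.3 CPM in Tg. The droplets held 4184 and 5811 CPM in WT and 16864 and 15781 CPM in Tg of the AT2 genes, more than the nuclei in every mouse.

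Members just inside the selection were compared with barcodes just outside it. Nuclei with exactly 5 UMIs of the 7 genes (6 and 10 in WT, 32 and 22 in Tg) held Pdgfra at 459 and 190.1 CPM in WT and at 1017 and 304 CPM in Tg. Barcodes with 4 such UMIs, which were left out (6 and 11 in WT, 34 and 16 in Tg), held it at 157 and 78.3 CPM in WT and at 737 and 321 CPM in Tg. Npnt was at 613 and 462 CPM in WT and 599.5 and 571 CPM in Tg just inside and at 567 and 835 CPM in WT and 492 and 883 CPM in Tg just outside, and Tbx4 at 76.6 and 190.1 CPM in WT and 171 and 170.1 CPM in Tg inside and at 315 and 183 CPM in WT and 144 and 145 CPM in Tg outside. Several of these values rest on few UMIs. In WT Pdgfra had 12 and 7 UMIs inside and 5 and 3 outside, and Tbx4 had 2 and 7 inside and 10 and 7 outside. The genes did not move together in these counts, and whether the differences exceed counting error was not tested. Pdgfra was higher inside in 3 mice, while Npnt was higher outside in WT replicate 2 and Tg replicate 2 and Tbx4 in WT replicate 1. The cap on Ptprc removed 13 to 60 further barcodes per mouse, the cap on EC genes 7 to 43, and the cap on adventitial genes 0 to 2. Of the 7 genes used, Itga8, the integrin subunit that binds nephronectin, was at 1248 and 1325 CPM in WT and 1238 and 1183 CPM in Tg, and Adra1a, an alpha-1 adrenergic receptor, at 382 and 395 CPM in WT and 497 and 398 CPM in Tg. Scube2, a secreted carrier of hedgehog ligand, was at 242 and 179 CPM in WT and 338 and 229 CPM in Tg and Fgfr4, a fibroblast growth factor receptor, at 108 and 108 CPM in WT and 216 and 118 CPM in Tg. These 4 genes chose the nuclei and their levels are a description.

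Compared with the other mesenchymal nuclei of the same lungs, alveolar fibroblasts held most in excess Spon1, Gria3, Robo2, Prkg2 and Slit2. The comparison held 180 nuclei that passed a gate of adventitial, pericyte or SMC genes (31 and 22 in WT, 63 and 64 in Tg). It is a description with no test, since the selection defined it. The pericyte gate was passed by 124 of these nuclei, the adventitial gate by 50 (14 and 4 in WT, 23 and 9 in Tg) and the SMC gate by 9. The ratios are thus mainly against pericytes and say little about other fibroblasts. Where a mouse had under 3 UMIs of a gene in the other nuclei, 3 UMIs were used in their place, which lowers the ratio. This applied to Prkg2 and Gria1 in 3 mice, to Ppp4r4 in 2, and to Spon1, Adamts17, Astn2 and Amph in 1. Spon1, the secreted matrix protein F-spondin, was at 1392 and 1423 CPM in WT and 1013 and 1016 CPM in Tg against 15.4 and 73.4 CPM in WT and 56.9 and 19.97 CPM in Tg in the other nuclei, 17.8 to 60.2 times as high. Slit2, a secreted guidance ligand, was at 3094 and 2015 CPM in WT and 1142 and 1611 CPM in Tg (7.67 to 15.1 times), and its receptor Robo2 at 2819 and 2131 CPM in WT and 1747 and 2270.0 CPM in Tg (8.87 to 23.5 times). The netrin receptor Unc5c was 6.39 to 16.2 times as high. In all 4 mice both a Slit ligand and a Slit receptor were thus higher in alveolar fibroblasts. The glutamate receptor subunits Gria3 and Gria1 were 10.97 to 19.99 and 6.85 to 19.8 times as high, and the vesicle genes Amph and Syn2 5.93 to 22.6 and 5.63 to 10.9 times. Cdh11, the mesenchymal cadherin, was at 6.76 to 22.7 times, Fat3 at 6.59 to 16.02 times and the delta-catenin gene Ctnnd2 at 5.64 to 7.02 times. Adamts17, a secreted protease, was 7.302 to 17.7 times, Astn2, an astrotactin, 6.79 to 44.3 times, and Ppp4r4, a phosphatase regulatory subunit, 6.56 to 9.18 times as high. Prkg2, the type II cGMP-dependent kinase, was 8.08 to 16.7 times as high. Tbx5, a factor of heart and lung mesenchyme, went the other way and was at 0.2195 to 0.533 times the level of the other mesenchymal nuclei. It was 6.39 to 10.6 times that of all remaining barcodes. Foxf1 (0.203 to 0.839 times) and Meox1 (0 to 0.176 times) were likewise below the other mesenchymal nuclei in each mouse. Slc38a5 (0.559 to 2.76 times) and Gpc3 (0.766 to 5.05 times) lay on both sides of them.

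**Figure D2:**
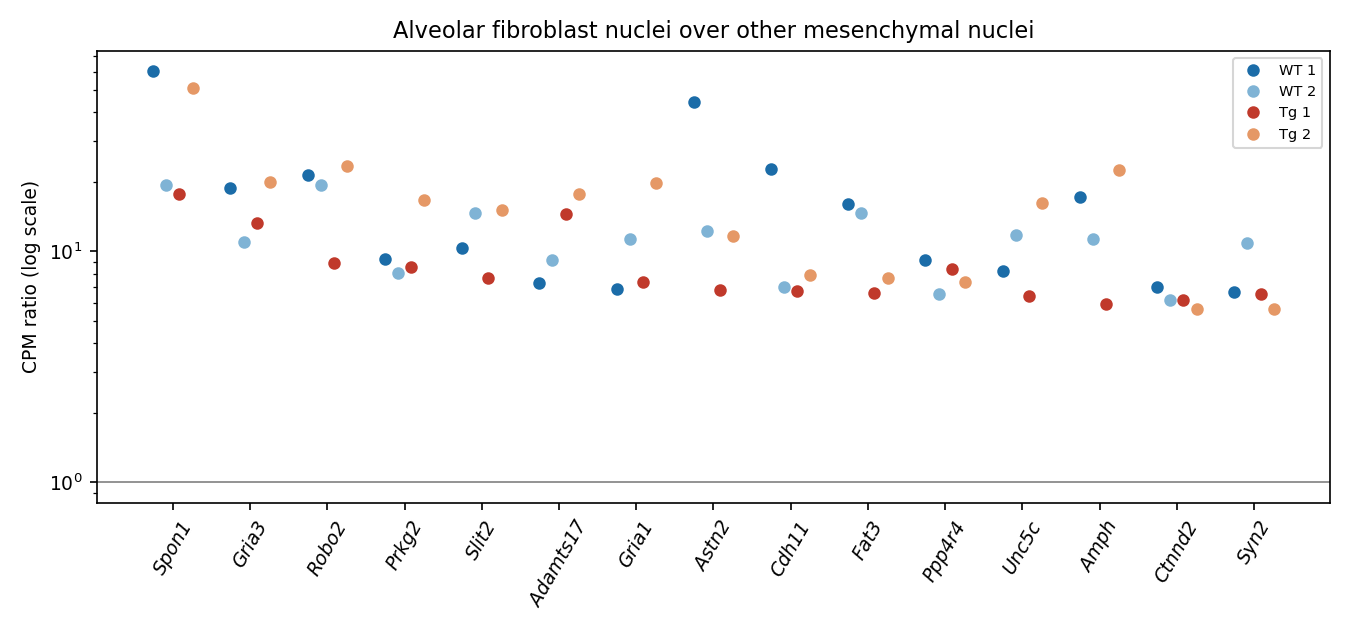
Ratio, on a log scale, of the CPM in alveolar fibroblast nuclei to that in other mesenchymal nuclei of the same mouse, for the 15 genes with the highest lowest-of-4 ratio. Each point is 1 mouse, and counts under 3 in the other nuclei were set to 3. All points lie above 5 times, with Spon1 reaching 60.2 times in WT replicate 1.

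Against all remaining barcodes, which are mostly epithelial or free RNA, further genes stood out. Nox4, the NADPH oxidase that produces hydrogen peroxide, was at 2139 and 1765 CPM in WT and 1536 and 1806 CPM in Tg and 28.9 to 35.9 times the rest. C7, a component of complement, was at 2789 and 2339.6 CPM in WT and 1406 and 1452 CPM in Tg and 28.8 to 34.7 times the rest. Fgf10, the ligand for the epithelial receptor FGFR2, was at 196 and 176 CPM in WT and 144 and 189 CPM in Tg and 24.9 to 37.4 times the rest. All 4 mice showed each of the 3 genes at more than 24 times its level in their other barcodes.

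Within a mouse the nuclei varied most in Malat1, the nuclear long RNA, in the ankyrin gene Ank3 and in C7. After thinning to 1500 UMIs, Malat1 took a mean of 50.6 and 63.5 UMIs per nucleus in WT and 168 and 89.2 in Tg, with a variance of 4.78 and 6.75 times the mean in WT and 14.96 and 8.40 times in Tg. C7 had a mean of 4.19 and 3.13 UMIs in WT and 2.19 and 2.37 in Tg, and a variance of 4.03 and 3.44 times the mean in WT and 2.61 and 3.47 times in Tg. Robo2, Slit2, Pid1, Dock4, Arhgap6, Macf1 and Plxdc2 also stood among the 15 most variable of 3729 genes. Each of these 7 was higher in the chosen nuclei than in the droplets of every mouse. Others among the 15 are known from epithelial cells. Rtkn2, an alveolar type I marker, had 34.04% to 56.4% of its UMIs in 3 nuclei of each mouse, and the chosen nuclei held less of Ank3 and Mecom than the remaining barcodes. Most chosen nuclei also passed a gate of another cell type, 71 of 103 and 94 of 125 in WT (68.9% and 75.2%) and 234 of 249 and 173 of 179 in Tg (94.0% and 96.6%). Chief among them were the gate of club cells, passed by 61 and 57 nuclei in WT and by 213 and 147 in Tg, and that of AT2 cells, passed by 26 and 66 in WT and by 129 and 139 in Tg, both built on genes that the droplets hold as well. The gate of alveolar type I cells was passed by 6 and 4 nuclei in WT and by 8 and 13 in Tg. That of mesothelial cells was passed by 1 and 5 nuclei in WT and by 10 and 17 in Tg, and that of ciliated cells by 4 and 2 in WT and 9 and 3 in Tg. Doublets and free RNA cannot be told apart by these gates.

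The number of nuclei per library differed, and the share of barcodes with 1500 or more UMIs was 0.382% and 0.324% in WT and 0.985% and 0.407% in Tg. The mean was 0.353% ± 0.041 (SD, n = 2) in WT and 0.696% ± 0.409 (SD, n = 2) in Tg. Both Tg mice were above both WT mice, at an exact two-sided permutation p = 0.33, the smallest that 2 against 2 mice allow. Without Tg replicate 1 the difference fell from 0.343 to 0.053 percentage points. Among barcodes with 3000 or more UMIs the order turned, with 1.67% and 1.20% in WT and 1.49% and 0.76% in Tg (exact permutation p = 0.67). With at least 8 UMIs from 4 of the 7 genes the difference was 0.108 percentage points (exact permutation p = 1), and without the nuclei that passed another gate it was -0.063. With every barcode thinned to 1500 UMIs the shares were 0.104% and 0.104% in WT and 0.435% and 0.130% in Tg. Without the highest cxds scores (a doublet score) they were 0.180% and 0.154% in WT and 0.799% and 0.309% in Tg. Both Tg mice stayed above both WT mice in both settings (exact permutation p = 0.33 in each). The cxds step took out unequal parts of the chosen nuclei, 65 of 103 and 84 of 125 in WT and 88 of 249 and 91 of 179 in Tg. A share of barcodes rests on how many epithelial and other nuclei were captured and on the depth. Barcodes with 1500 or more UMIs can also include droplets without a nucleus, since no cell calls were used. The median of all these barcodes was 1860 and 1961 UMIs in WT and 2512 and 2530 in Tg, nearer the limit in WT. How many held no nucleus was not measured, so the share is not a proportion of cells. Fewer fibroblasts and poorer recovery of their nuclei cannot be told apart.

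For the effect of the endothelial transgene on alveolar fibroblasts, UMIs were summed per mouse and 9483 genes were tested with edgeR. The test called 363 genes at an adjusted p under 0.05 (3.83% of those tested), 340 higher in Tg (3.59%) and 23 lower in Tg (0.243%). An unadjusted p under 0.05 was reached by 1919 genes, and DESeq2 called 274. Most of the higher calls were genes at or below their level in free RNA. Ribosomal protein genes made up 70 of them (of 88 tested), mitochondrially encoded genes 11 (of 13) and globin genes 4 (of 4). The median log2 fold change of the ribosomal protein genes was 2.39 in the nuclei and 2.41 in the droplets, and that of the mitochondrially encoded genes was 2.55 and 2.82. Of the 340 higher calls, 334 were also higher in the Tg droplets, and 266 were at or below the droplet level in each of the 4 mice, as were 3073 of all 9483 genes. All 23 lower calls were lower in the Tg droplets too, and 13 of them stood above the droplet level in each mouse. Over all genes tested 6109 of 9483 (64.4%) were lower in the Tg droplets, and of the 2358 genes above the droplets in each mouse 1996 were (84.6%). The part of free RNA in single calls was addressed by subtraction. With the profile of the droplets subtracted, a setting chosen after seeing the data, 75 genes were called, 68 higher and 7 lower. With the profile of barcodes with 10 to 99 UMIs 0 were called (edgeR, 584 with an unadjusted p under 0.05). That profile held 36253 and 317345 UMIs in WT and 45591 and 351098 in Tg, against 9309535 to 28487051 in the droplets. Single UMIs weigh much in it, so the 0 does not measure the part of free RNA. Leaving out every nucleus that passed another gate left 32 and 31 nuclei in WT and 15 and 6 in Tg, and 105 of 2128 genes were called, 104 higher and 1 lower. Leaving out only those that passed a gate other than AT2 or club, chosen after seeing the data, gave 504 calls, 463 higher and 41 lower. The number also moved when 1 mouse was left out. Such a fit takes its spread from the other genotype only, so its count does not measure stability. Without WT replicate 1 the count was 656, without WT replicate 2 it was 1468, without Tg replicate 1 it was 3 and without Tg replicate 2 it was 128, with 0 lower calls without either Tg mouse. TRF2 itself is encoded by Terf2, which was at 35.9 and 57.4 CPM in WT and 54.2 and 40.7 CPM in Tg in these nuclei (log2 0.07, edgeR adjusted p = 0.93), and since the transgene is expressed in ECs this does not check the labels.

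**Figure D3:**
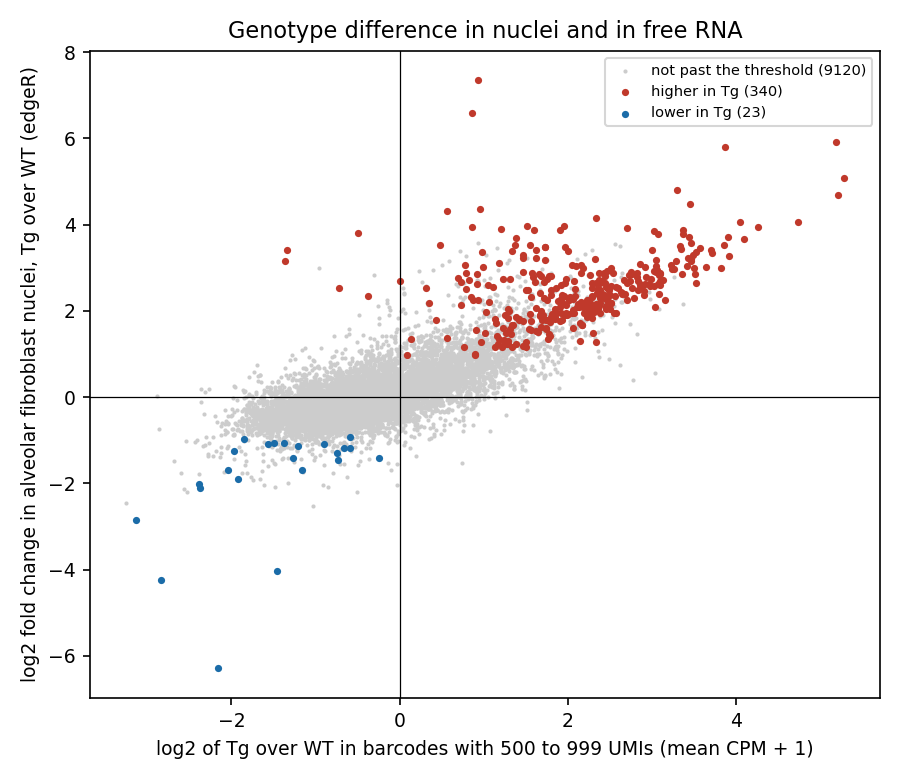
Each point is 1 of the 9483 genes tested, with the log2 ratio of Tg over WT in the droplets (barcodes with 500 up to 1000 UMIs, mean CPM plus 1) on the x axis and the edgeR log2 fold change in alveolar fibroblast nuclei on the y axis. Red and blue points are the 340 and 23 genes past an adjusted p of 0.05. All of the blue points lie left of 0, and 334 of the red points lie right of it.

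Ror2, Prickle1, Epha3, Adamts15, Hoxb3, Cpeb1, Rab28 and Vegfc were lower in Tg, with log2 fold changes of -1.69 to -1.05. All 8 stood above the droplets in each mouse, and the 2358 tested genes that did so had a median of -0.27. Their edgeR adjusted p-values were 0.025 to 0.049. On simulated data the share of false calls was above the threshold of 0.05. Of the 23 lower calls, the 8 named ones met the rule for named genes (2 or more times the level of the barcodes with 10 to 99 UMIs in both WT mice, no overlap of the genotypes, no cell type marker, no predicted gene). Ror2 (chr13:53109312-53286124, minus strand; coordinates on mm10), the receptor tyrosine kinase that binds WNT5A, was at 125 and 141 CPM in WT and 55.4 and 67.01 CPM in Tg (log2 fold change -1.09, SE 0.22, edgeR adjusted p = 0.038). Prickle1 (chr15:93499114-93595891, minus strand), a planar cell polarity protein that acts with WNT and ROR2 signals, was at 285 and 196 CPM in WT and 91.2 and 118 CPM in Tg (log2 fold change -1.17, SE 0.26, edgeR adjusted p = 0.049). Both WT mice were above both Tg mice for each gene, which the rule for named genes required. Epha3 (chr16:63543534-63864175, minus strand), an ephrin-A receptor, was at 226 and 222 CPM in WT and 87.7 and 124 CPM in Tg (log2 fold change -1.05, SE 0.22, edgeR adjusted p = 0.039), with 2.58 to 10.7 CPM in the droplets. Adamts15 (chr9:30899155-30922452, minus strand), a secreted protease that cleaves the proteoglycan versican, was at 230.1 and 219.7 CPM in WT and 90.01 and 105 CPM in Tg (log2 fold change -1.17, SE 0.20, edgeR adjusted p = 0.025). For these 2 genes as well the rule required that the genotypes did not overlap.

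The other 3 besides Vegfc act inside the cell. Hoxb3 (chr11:96323326-96347930, plus strand), a homeobox factor of body axis position, fell from 51 and 67 UMIs in WT to 28 and 29 UMIs in Tg (log2 fold change -1.31, SE 0.26, edgeR adjusted p = 0.037). Its reads cannot be told apart from those of Gm11536 and Hoxb3os, which overlap it on the opposite strand, since the use of strand in counting is not given in the sources used here. Gm11536 had 4 and 2 UMIs in WT and 25 and 14 UMIs in Tg (log2 fold change 2.39, edgeR adjusted p = 0.084) and Hoxb3os 3 and 1 UMIs in WT and 7 and 7 UMIs in Tg, so that the partners went the other way. Cpeb1 (chr7:81347026-81455465, minus strand), which binds the 3′ ends of mRNAs and controls their translation, was at 264 and 239 CPM in WT and 99.2 and 133 CPM in Tg (log2 fold change -1.09, SE 0.21, edgeR adjusted p = 0.035). Rab28 (chr5:41624976-41708157, minus strand), a small GTPase of cilia and vesicle traffic, was at 205 and 174 CPM in WT and 75.01 and 93.3 CPM in Tg (log2 fold change -1.14, SE 0.22, edgeR adjusted p = 0.034), and its droplets held 134 and 94.1 CPM in WT and 41.9 and 55.6 CPM in Tg. The droplets were lower in Tg for each of the 8, with log2 ratios of -1.56 for Ror2, -1.49 for Epha3, -1.21 for Rab28 and -1.16 for Vegfc, and of -0.90 to -0.59 for the other 4. With the profile of the droplets subtracted, the log2 fold changes of the 8 were -1.90 to -1.19, each larger in size than before (-1.22 for Rab28, -1.21 for Ror2). Adamts15 and Cpeb1 kept an adjusted p under 0.05 in that fit (0.0328 and 0.0382, edgeR), and the other 6 lay at 0.0504 to 0.0798. None of the 8 kept its call with the profile of barcodes with 10 to 99 UMIs, where the log2 fold changes were -2.19 to -0.93. DESeq2 did not call Ror2, Hoxb3, Epha3 and Rab28 (adjusted p = 0.147, 0.152, 0.080 and 0.066), and with the replicate block Epha3 and Prickle1 were at 0.0504 and 0.0545 in edgeR. A fit that lacks 1 mouse has a single mouse in a genotype, so that only the other genotype gives the spread. Calls kept or lost there thus say little about the 8 genes. With Tg replicate 1 left out, the log2 fold changes of the 8 ran from -1.38 to -0.90. They ran from -2.13 to -1.18 once Tg replicate 2 was left out instead. Leaving out WT replicate 1 gave -1.87 to -0.88, and leaving out WT replicate 2 gave -1.56 to -1.07.

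Vegfc (chr8:54077606-54187096, plus strand), the ligand of the lymphatic receptor VEGFR3, had the largest fall of the 8, from 85 and 117 UMIs in WT to 27 and 48 UMIs in Tg (log2 fold change -1.69, SE 0.30, edgeR adjusted p = 0.026). In CPM these were 127 and 164 CPM in WT and 31.2 and 57.4 CPM in Tg. A single nucleus of WT replicate 2 held 75 of its 117 Vegfc UMIs. This nucleus had 28089 UMIs, 41 of the 7 genes of the selection and 23 of Pdgfra, and it also held 192 of the 262 UMIs of Hdac9, a class IIa histone deacetylase, in that mouse. Without the top nucleus of each mouse Vegfc was at 117 and 58.8 CPM in WT and at 28.9 and 52.7 CPM in Tg, and without the top 3 at 100.1 and 44.8 CPM in WT and 24.2 and 46.7 CPM in Tg, where WT replicate 2 was below Tg replicate 2. Among nuclei with at most 8000 UMIs, a limit chosen after seeing the data, the log2 fold change of Vegfc was -1.06, and Vegfc, Prickle1 (-0.69), Rab28, Cpeb1 (-0.92), Epha3 (-0.91) and Ror2 (-0.88) no longer passed the test, while Hoxb3 and Adamts15 did. Depth and doublet scores moved the folds as well. With nuclei thinned to 1500 UMIs Prickle1 was at -0.65 and Adamts15 at -0.72, and without the highest cxds scores Prickle1 was at -0.57 and Vegfc at -0.68, none of which passed the test. The cxds step left 38 and 41 nuclei in WT and 161 and 88 in Tg. UMIs of the other 7 lay in 26 to 73 nuclei per mouse.

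**Figure D4:**
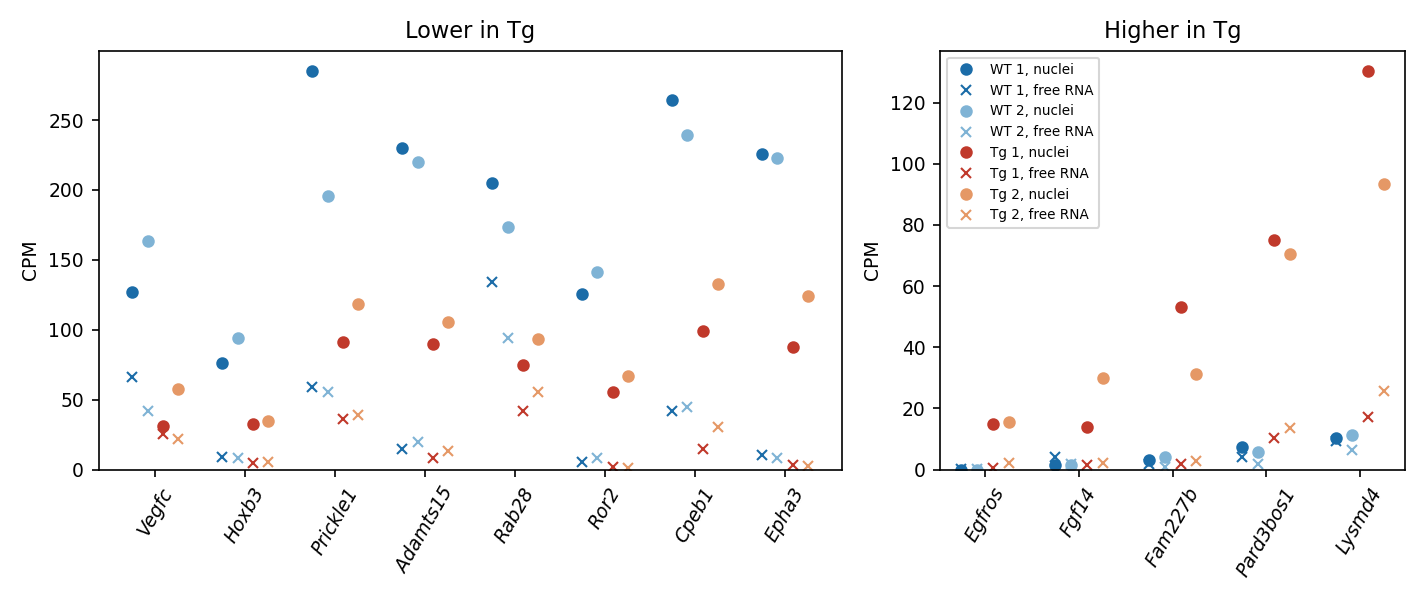
CPM of the 8 lower (left) and 5 higher (right) named genes, 1 circle per mouse for the alveolar fibroblast nuclei and 1 cross for its droplets (free RNA). For each lower gene both WT circles lie above both Tg circles, and for each higher gene both Tg circles lie above both WT circles. The rule for named genes required this order.

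Chl1 (chr6:103510586-103750211, plus strand), a cell adhesion molecule, and Kif26b (chr1:178529125-178939200, plus strand), a kinesin that acts downstream of WNT5A and ROR2, were called lower as well. They stood outside the named set because they had been listed, with Agtr1b, as markers of another fibroblast type. Chl1 had 59 and 22 UMIs in WT and 0 and 1 UMIs in Tg (log2 fold change -6.29, SE 0.97, edgeR adjusted p = 0.018) and Kif26b 108 and 57 UMIs in WT and 9 and 3 UMIs in Tg (log2 fold change -4.03, SE 0.55, edgeR adjusted p = 0.014). The fitted value of Chl1 depends on the prior count, and the ratio of WT over Tg counts was 99.6, with a 95% counting interval of 17.4 to 3983. These UMIs lay in few nuclei. Chl1 was seen in 8 and 5 WT nuclei and in 0 and 1 Tg nuclei, and 3 nuclei held 83.1% and 90.9% of the WT UMIs. Kif26b was seen in 23 and 6 WT nuclei and in 7 and 3 Tg nuclei, and 74 of the 108 UMIs of WT replicate 1 and 11 of the 57 of WT replicate 2 came from nuclei with Chl1. The same 8 and 5 nuclei held 28 of the 84 and 12 of the 101 Ror2 UMIs of the WT mice. The nuclei with both genes numbered 4 and 1 in WT and 0 and 0 in Tg. No barcode passed the full gate of these 3 markers, and for Chl1 the values describe a handful of WT nuclei.

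The named genes that were higher in Tg were 5 in number, and little is known of most of them in fibroblasts. Lysmd4 (chr7:67222544-67307330, plus strand), which encodes a protein with a LysM domain, had 7 and 8 UMIs in WT and 113 and 78 UMIs in Tg (log2 fold change 3.39, SE 0.36, edgeR adjusted p = 0.011). It was seen in 6.796% and 6.4% of WT nuclei and in 36.9% and 29.6% of Tg nuclei, which were shallower. Pard3bos1 (chr1:61767415-61851540, minus strand), annotated antisense to the polarity gene Pard3b, had 5 and 4 UMIs in WT and 65 and 59 UMIs in Tg (log2 fold change 3.49, SE 0.37, edgeR adjusted p = 0.011). Fam227b (chr2:125983483-126152004, minus strand), which encodes a protein of little known function, had 2 and 3 UMIs in WT and 46 and 26 UMIs in Tg (log2 fold change 3.53, SE 0.58, edgeR adjusted p = 0.021). In each of these 3 genes both Tg mice had more than 7 times the CPM of either WT mouse. Lysmd4 and Pard3bos1 kept an adjusted p under 0.05 after the profile of the droplets was subtracted (0.0235 and 0.0266, edgeR). Fam227b lost it there (0.0635, edgeR), at a log2 fold change of 3.38. With the profile of barcodes with 10 to 99 UMIs all 3 lost it, at 3.57 for Lysmd4, 3.39 for Pard3bos1 and 3.52 for Fam227b. In the same order the log2 fold changes were 3.04, 3.36 and 3.01 without Tg replicate 1 and 3.65, 3.57 and 3.90 without Tg replicate 2.

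Egfros (chr11:16815431-16830702, minus strand), antisense to Egfr, had 0 and 0 UMIs in WT and 13 and 13 UMIs in Tg. Against a floor of 3 UMIs in each WT library this is at least 3.35-fold higher in Tg (edgeR adjusted p = 0.035). Fgf14 (chr14:123977907-124677127, minus strand), an intracellular FGF relative that binds sodium channels, had 1 and 1 UMIs in WT and 12 and 25 UMIs in Tg, a ratio of 15.04 with a 95% counting interval of 3.88 to 129 (log2 fold change 3.79, SE 0.76, edgeR adjusted p = 0.036). With the profile of the droplets subtracted neither Egfros nor Fgf14 was called (adjusted p = 0.09696 and 0.09602, edgeR). The log2 fold changes were then 6.53 and 4.53, beside 6.59 and 3.79 before. Without Tg replicate 1 the log2 fold change of Fgf14 was 4.18, and Egfros was not tested. Both genes stood above the droplets in the 2 Tg mice only, and the naming rule asked for no such level in WT. Fgf14 was at 1.49 and 1.40 CPM in WT, against 3.95 and 1.88 CPM in the WT droplets. The Tg UMIs of Fgf14 lay in 3 and 5 nuclei, with 10 in 1 nucleus of each mouse. Whether counting used the strand of the reads is not given in the sources used here, so reads of Pard3bos1 and Egfros cannot be told apart from those of Pard3b and Egfr, and likewise those of Lysmd4 from Mef2a and of Fam227b from Galk2 and Fgf7, which overlap them on the opposite strand. The partners did not pass the test, with log2 fold changes of -0.65 for Pard3b, -0.29 for Egfr, -0.41 for Mef2a, -0.40 for Galk2 and -0.62 for Fgf7.

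The same genes were followed in the remaining barcodes of the libraries, which the test did not use. There Lysmd4 was higher in Tg by 2.66 on the log2 scale, Pard3bos1 by 3.29, Egfros by 4.15 and Fam227b by 1.65, so that higher Tg values were not limited to alveolar fibroblasts (no test was run there). In the other mesenchymal nuclei Pard3bos1 had 1 and 0 UMIs in WT and 28 and 12 in Tg, and Lysmd4 3 and 1 in WT and 12 and 18 in Tg. Of the lower genes, Epha3 was at -1.19 and Ror2 at -0.98 in the remaining barcodes, Rab28 at -0.78 and Adamts15 at -0.65, while Vegfc was at -0.27 and Prickle1 at -0.10. The remaining barcodes include free RNA of the fibroblasts.

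None of the alveolar fibroblast identity, collagen and elastic fibre genes passed the test between the genotypes. Lists were counted by edgeR, against 3.59% higher and 0.243% lower calls over all genes tested, and DESeq2 likewise called 0 genes in each list in which edgeR called none. The 2358 genes above the droplets in each mouse had 25 higher and 13 lower calls. Their median log2 fold change was -0.27, with 74.5% negative, so lists rich in such genes are read beside that median. Of the edgeR calls in the lists that follow, DESeq2 did not call Id3, Ntrk2, Epha3, Sfrp2, Rspo1 and Hsp90aa1, and gave no adjusted p for Fgf14. Of the 20 identity genes 18 were tested and none was called (edgeR, 1 with an unadjusted p under 0.05), with a median log2 fold change of -0.02 against 0.01 over all genes tested. Pdgfra was at log2 0.54 (SE 0.37), Npnt at -0.36 (SE 0.20) and Limch1 at -0.05 (SE 0.22). Of 24 collagen genes 16 were tested and none was called (edgeR, 3 with an unadjusted p under 0.05), with a median of 0.08. Col1a1, of type I fibres, was at 35.9 and 36.4 CPM in WT and 39.2 and 46.7 CPM in Tg, and Col13a1 at log2 0.04. Col5a2, of type V collagen, was at 512 and 302 CPM in WT and 145 and 226 CPM in Tg, but did not pass the test (adjusted p = 0.10). Both WT values were above both Tg values, as for 2504 of all 9483 genes tested. Of 21 elastic fibre genes 13 were tested and none was called (edgeR, 3 with an unadjusted p under 0.05), with a median of 0.25. Eln, the elastin gene, was at 187 and 204 CPM in WT and 295 and 449 CPM in Tg (log2 fold change 0.95, SE 0.23, edgeR adjusted p = 0.065), and Fbn1, fibrillin-1, at 296 and 274 CPM in WT and 180.0 and 206 CPM in Tg (log2 -0.53, adjusted p = 0.18).

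Of 38 other matrix genes 30 were tested, 1 was higher and none lower, near the 3.59% and 0.243% of all genes, with a median of -0.05. The higher gene was Bgn, the proteoglycan biglycan, at 74.7 and 90.95 CPM in WT and 178 and 220.2 CPM in Tg (log2 fold change 1.29, SE 0.22, edgeR adjusted p = 0.022), while the droplets held 61.7 and 94.1 CPM in WT and 297 and 400.3 CPM in Tg. The ratio of Tg over WT was larger in the droplets than in the nuclei, and the droplets were above the nuclei in 3 mice. The laminin chain Lama2 was at 1056 and 697 CPM in WT and 490.5 and 608 CPM in Tg (log2 -0.65, adjusted p = 0.21), and Fn1, fibronectin, at 605 and 571 CPM in WT and 382 and 535 CPM in Tg (log2 -0.34, adjusted p = 0.41). Of 21 integrin and adhesion genes 18 were tested and none was called (edgeR, 2 with an unadjusted p under 0.05), with a median of -0.05. Itga9 was at 478 and 575 CPM in WT and 567 and 513 CPM in Tg and Ptk2, focal adhesion kinase, at 421 and 333 CPM in WT and 229.6 and 285 CPM in Tg.

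**Figure D5:**
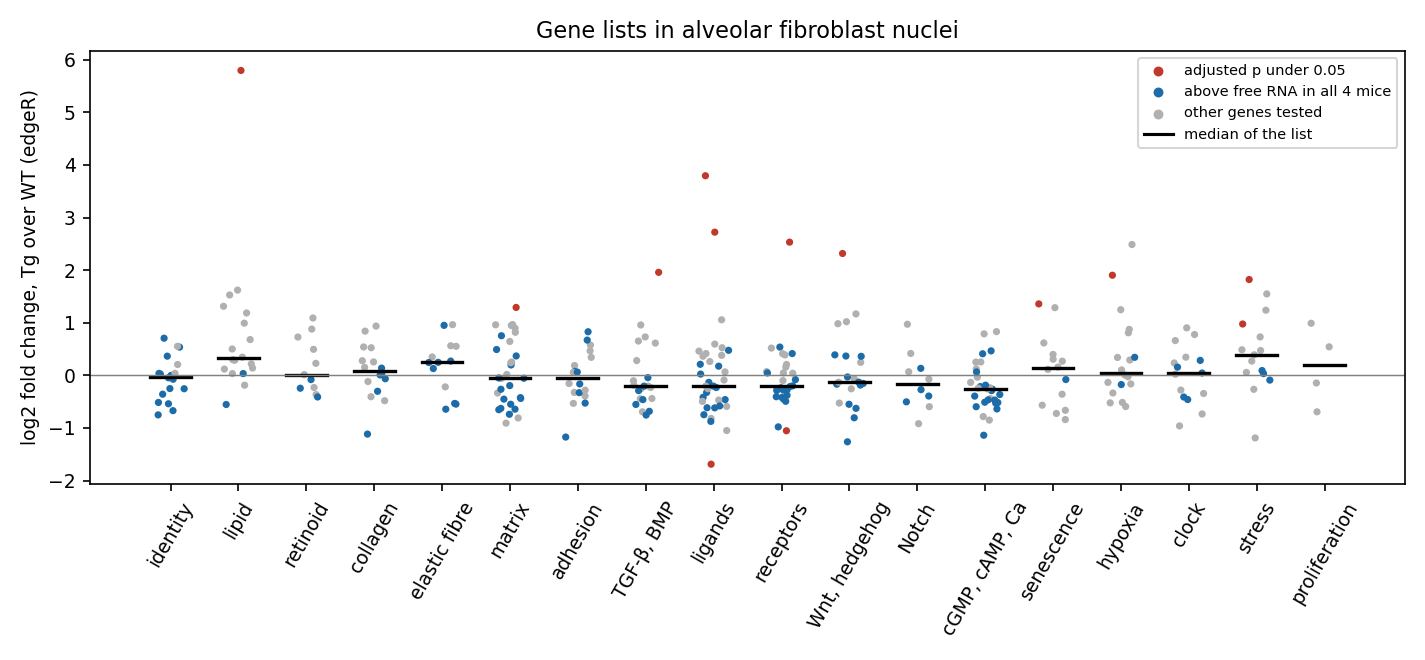
edgeR log2 fold change of Tg over WT in alveolar fibroblast nuclei for the tested genes of 18 lists. Red points passed an adjusted p of 0.05, blue points stood above the droplets in each of the 4 mice, grey points are the rest, and black bars are list medians. Medians lie between -0.26 and 0.39, with 0.01 over all genes tested and -0.27 over those above the droplets in each mouse.

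Lipid and retinoid genes, which mark the lipid-storing character of these cells, were read beside the droplets, above which 2358 of all 9483 genes tested stood in every mouse (24.9%). Of 22 lipid genes 18 were tested, 1 was higher and none lower, with a median of 0.32, and 2 of the 18 stood above the droplets in each mouse. The higher gene was Fabp1, the fatty acid binding protein of liver and gut, at 0 and 1 UMIs in WT and 56 and 25 UMIs in Tg, and the droplets held 1.14 and 17.1 CPM in WT and 198 and 95.6 CPM in Tg. Plin2, the lipid droplet coat protein, was at 50.8 and 95.2 CPM in WT and 156 and 127 CPM in Tg (log2 0.99, adjusted p = 0.13) with the droplets above the nuclei in every mouse. Zbtb16, a zinc finger factor and glucocorticoid target, was above the droplets in each mouse at 976 and 1927 CPM in WT and 1568 and 1304 CPM in Tg (log2 0.03). Of 19 retinoid genes 11 were tested and none was called (edgeR, 1 with an unadjusted p under 0.05), and 3 of the 11 stood above the droplets in each mouse. Aldh1a1, which makes retinoic acid, was at 1623 and 1832 CPM in WT and 1378 and 1471 CPM in Tg (log2 -0.24, adjusted p = 0.53), and Rarg, a retinoic acid receptor, at 68.7 and 54.6 CPM in WT and 55.4 and 58.6 CPM in Tg.

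Among 45 secreted factors and their relatives 35 were tested, 2 were higher (Fgf14 and Rspo1) and 1 lower (Vegfc), with a median of -0.20. The 16 of the 35 above the droplets in each mouse had a median of -0.37, beside -0.27 for all 2358 such genes. Rspo1, an activator of WNT signalling, was at 2.99 and 4.198 CPM in WT and 28.9 and 19.1 CPM in Tg (log2 fold change 2.72, SE 0.58, edgeR adjusted p = 0.045), below the 8.39 and 15.04 CPM in WT and 79.9 and 78.8 CPM in Tg of the droplets, and was not called by DESeq2 (adjusted p = 0.18). Ligands for the epithelium did not pass the test. Fgf10 was at log2 -0.13, Fgf7 was at 176 and 168 CPM in WT and 100.4 and 119.7 CPM in Tg (log2 -0.62, adjusted p = 0.15) and Hgf at 102 and 76.96 CPM in WT and 46.2 and 68.2 CPM in Tg (log2 -0.62, adjusted p = 0.27). Of the ligands for ECs given here, Vegfc passed the test and 3 others did not. Angpt1, the TIE2 ligand, was at 1525 and 1504 CPM in WT and 1054 and 1099 CPM in Tg (log2 -0.46, adjusted p = 0.24), Vegfd, the other VEGFR3 ligand, at 196 and 200.1 CPM in WT and 231 and 205 CPM in Tg (log2 0.18, adjusted p = 0.67) and Vegfa at 154 and 127 CPM in WT and 99.2 and 95.7 CPM in Tg (log2 -0.49, adjusted p = 0.27). Slit2, high in these nuclei, had a wide spread with 3094 and 2015 CPM in WT and 1142 and 1611 CPM in Tg (log2 -0.87, adjusted p = 0.14).

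Of 35 receptors 29 were tested, 1 was higher (Ntrk2) and 1 lower (Epha3), with a median of -0.20. The 19 of the 29 above the droplets in each mouse had a median of -0.27, the same as for all 2358 such genes. Ntrk2, the receptor of brain-derived neurotrophic factor, was at 4.48 and 4.198 CPM in WT and 25.4 and 25.1 CPM in Tg (log2 fold change 2.53, SE 0.50, edgeR adjusted p = 0.035), with 42.3 and 14.5 CPM in WT and 38.9 and 32.01 CPM in Tg in the droplets, which exceeded the nuclei in each mouse. DESeq2 called neither Ntrk2 (adjusted p = 0.19) nor Epha3 (adjusted p = 0.080). Il1r1, the interleukin-1 receptor, was at 227 and 264 CPM in WT and 90.01 and 156 CPM in Tg (log2 -0.98, adjusted p = 0.083) and Ednra, the endothelin receptor A, at 379 and 274 CPM in WT and 248 and 235 CPM in Tg (log2 -0.41, adjusted p = 0.37).

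Of 29 genes of TGF-beta and BMP signalling and of myofibroblasts 21 were tested, 1 was higher and none lower, with a median of -0.20. The 7 of the 21 above the droplets in each mouse had a median of -0.46, beside -0.27 for all 2358 such genes. The higher gene was Id3, a BMP target, at 11.95 and 12.6 CPM in WT and 50.8 and 43.1 CPM in Tg (log2 fold change 1.96, SE 0.37, edgeR adjusted p = 0.033), with 17.8 and 22.6 CPM in WT and 121 and 97.6 CPM in Tg in the droplets, and DESeq2 did not call it (adjusted p = 0.11). Bmpr2, the type II BMP receptor that is mutated in heritable pulmonary hypertension, was at 508 and 402 CPM in WT and 210.0 and 322 CPM in Tg (log2 fold change -0.75, SE 0.25, edgeR adjusted p = 0.15). Both Tg values lay below both WT values, as for 2504 of all 9483 genes tested, and the difference did not pass the test. The signal transducer Smad3 was at 187 and 195 CPM in WT and 91.2 and 142 CPM in Tg (log2 -0.68, adjusted p = 0.16), and Tgfbr2, the TGF-beta receptor, at 406 and 396 CPM in WT and 286 and 358 CPM in Tg (log2 -0.29, adjusted p = 0.44).

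Of 28 WNT and hedgehog genes 21 were tested and 1, the secreted frizzled-related protein Sfrp2, was higher, with a median of -0.13. The 12 of the 21 above the droplets in each mouse had a median of -0.16, beside -0.27 for all 2358 such genes. Sfrp2 was at 5.98 and 8.396 CPM in WT and 27.7 and 44.3 CPM in Tg (log2 fold change 2.32, SE 0.47, edgeR adjusted p = 0.037) and at 36.1 and 26.5 CPM in WT and 79.6 and 108 CPM in Tg in the droplets, and DESeq2 did not call it (adjusted p = 0.12). Hhip, the hedgehog-interacting protein, was at 62.7 and 61.6 CPM in WT and 20.8 and 29.9 CPM in Tg (log2 fold change -1.26, SE 0.30, edgeR adjusted p = 0.065), and Gli3, a hedgehog transcription factor, at 143 and 149.7 CPM in WT and 91.2 and 71.8 CPM in Tg (log2 -0.81, adjusted p = 0.12). For Hhip and Gli3 both WT mice were above both Tg mice, as for 2504 of all 9483 genes tested, and neither difference passed the test. In WT 3 nuclei held 73.8% and 54.5% of the Hhip UMIs, and without the top 3 nuclei of each mouse Hhip was at 16.4 and 27.99 CPM in WT and 13.8 and 14.4 CPM in Tg. Wnt5a, the ligand of Ror2, was at 37.4 and 15.4 CPM in WT and 13.8 and 10.8 CPM in Tg (log2 -1.05, adjusted p = 0.32).

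Notch and senescence genes bear on the study's question, since TRF2DN is used to make ECs senescent and ECs present Notch ligands to their neighbours. Of 17 Notch genes 10 were tested and none was called (edgeR, 3 with an unadjusted p under 0.05), with a median of -0.17. The 4 of the 10 above the droplets in each mouse had a median of -0.33, beside -0.27 for all 2358 such genes. Notch2 was at 157 and 201 CPM in WT and 159 and 174 CPM in Tg (log2 -0.07, adjusted p = 0.88), and Hes1, a Notch target, at 46.3 and 55.97 CPM in WT and 99.2 and 96.9 CPM in Tg (log2 0.97, adjusted p = 0.075), with 147 and 125 CPM in WT and 208 and 210.4 CPM in Tg in the droplets. Jag1, a Notch ligand, was at 49.3 and 41.98 CPM in WT and 25.4 and 21.5 CPM in Tg (log2 -0.92, adjusted p = 0.18). Of 25 senescence and p53 genes 14 were tested, 1 was higher (Igfbp5) and none lower, with a median of 0.14. Igfbp5, which binds insulin-like growth factors, was at 202 and 339 CPM in WT and 600.1 and 755 CPM in Tg (log2 fold change 1.36, SE 0.26, edgeR adjusted p = 0.033), below the 752 and 1073 CPM in WT and 1798 and 2342 CPM in Tg of the droplets. Cdkn1a, which encodes the cell cycle inhibitor p21, was at 25.4 and 29.4 CPM in WT and 31.2 and 33.5 CPM in Tg (log2 fold change 0.27, SE 0.33, edgeR adjusted p = 0.69), below its droplets in each mouse, and Mdm2, the p53 ubiquitin ligase, at 102 and 99.4 CPM in WT and 61.2 and 57.4 CPM in Tg (log2 -0.72, adjusted p = 0.14).

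Of 33 genes of cGMP, cAMP and calcium signalling 30 were tested and none was called (edgeR, 3 with an unadjusted p under 0.05), with a median of -0.26, and 22 of 30 were negative against 4662 of 9483 for all genes. The 17 of the 30 that stood above the droplets in each mouse had a median of -0.39 with 14 negative, beside a median of -0.27 with 1757 negative (74.5%) for all 2358 such genes. Prkg1, the type I cGMP-dependent kinase, was at 2866 and 3171 CPM in WT and 2371 and 2447 CPM in Tg (log2 -0.29, adjusted p = 0.48), Gucy1a1, a subunit of the nitric oxide receptor guanylate cyclase, at 89.6 and 60.2 CPM in WT and 46.2 and 47.9 CPM in Tg (log2 -0.64, adjusted p = 0.28) and Pde5a, the cGMP phosphodiesterase, at 130.0 and 93.8 CPM in WT and 159 and 142 CPM in Tg (log2 0.47, adjusted p = 0.34). The calcium channel gene Cacna1c was at 2462 and 1709 CPM in WT and 1231 and 1485 CPM in Tg (log2 -0.60, adjusted p = 0.24). None of the 4 passed the test.

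Hypoxia, clock, stress and cell cycle genes were counted in the same way. Of 25 hypoxia genes 18 were tested and 1, the glycolytic enzyme Aldoa, was higher at 22.4 and 37.8 CPM in WT and 121 and 99.3 CPM in Tg (log2 fold change 1.90, SE 0.31, edgeR adjusted p = 0.022), with 104 and 123 CPM in WT and 369 and 358 CPM in Tg in the droplets, and the median was 0.05. Hif1a was at 119.5 and 83.96 CPM in WT and 63.5 and 75.4 CPM in Tg (log2 -0.52, adjusted p = 0.32). Of 19 clock genes 15 were tested and none was called (edgeR, 2 with an unadjusted p under 0.05), with a median of 0.05. Of 22 glucocorticoid and stress genes 15 were tested and the 2 chaperone genes Hsp90aa1 and Hspa8 were higher, both above the nuclei in the droplets of each mouse, with a median of 0.39. The glucocorticoid target Fkbp5 was at 98.6 and 343 CPM in WT and 210.0 and 191 CPM in Tg and differed most between the 2 WT mice. Of 14 proliferation genes 4 were tested and none was called (edgeR, 0 with an unadjusted p under 0.05). Mki67 had 6 and 22 UMIs in WT and 15 and 15 UMIs in Tg, at or below the droplet level.

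Whether a genotype difference in expression was particular to alveolar fibroblasts was tested by the interaction with the other mesenchymal nuclei of the same mice. Of 8998 genes 0 were called (0%), 386 had an unadjusted p under 0.05, and the lowest adjusted p was 0.246 (edgeR with a term for each mouse; no other tool was run). Of the 12 named genes in this test Fgf14 had the lowest p, with 0 and 10 UMIs in WT and 1 and 1 in Tg in the other nuclei (interaction log2 7.18, SE 1.47, edgeR adjusted p = 0.579). Without a filter on low counts Fgf14 was called, at an interaction log2 of 7.09 (edgeR adjusted p = 0.00078), a value that rests on these few UMIs. The 22 to 64 other mesenchymal nuclei per mouse, most of which passed the pericyte gate, limit this test.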

How the data were processed

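Per the labels and the study's methods, nuclei of mouse lungs (2 WT, 2 Tg) were sequenced with 10x Genomics 3′ kits, and the authors aligned reads to mm10 with Cell Ranger 6.1.1 and deposited UMI counts per gene and barcode. The deposited matrices hold all barcodes, without cell calls or cell types. The members and the gene lists were chosen with earlier results of these data known. Counts of the chosen nuclei were summed per mouse and tested with edgeR 4.0.16 (R 4.3.3) by the quasi-likelihood test (genes kept by filterByExpr at a minimum count of 10, TMM scaling, Benjamini-Hochberg threshold 0.05), after the step was tested on simulated data, where the share of false calls was above that threshold. The interaction fit held a term for each mouse. Named genes were up to 12 rises and 12 falls past the threshold, without overlap, at 2 or more times the CPM of barcodes with 10 to 99 UMIs, leaving out rule, cell type marker, transgene and predicted genes. Doublets were not removed in the main fit, and leaving out nuclei by marker gates or by cxds scores were alternatives, as were DESeq2 1.42.0, other filters, depth limits, the replicate block and each mouse left out. With 2 against 2 mice exact permutation tests cannot go below p = 0.33.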

Additional observations from a re-analysis of the deposited data

How the results depend on the processing

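The count of 363 genes (340 higher, 23 lower) depended on the processing. Without a filter on low counts it was 2 (2 higher, 0 lower), with the profile of barcodes with 10 to 99 UMIs subtracted 0, 0 and 0 (584 with an unadjusted p under 0.05), with that of barcodes with 500 up to 1000 UMIs, chosen after seeing the data, 75 (68 and 7), and without nuclei that passed another gate 105 (104 and 1; 2128 genes tested). Leaving out each mouse gave 3 to 1468 calls, 3 to 937 higher and 0 to 531 lower, with 63.8% higher without WT replicate 2 and 93.7% in all mice. Lower calls numbered 11 without the highest cxds scores, and, chosen after seeing the data, 41 without nuclei passing a gate other than AT2 or club and 12 among nuclei of at most 8000 UMIs. The cause was not tested. The interaction gave 5 calls without a filter (Fgf14 among them), 0 to 2 without single mice and 1 without nuclei passing another gate. The difference in share turned to -0.063 percentage points without nuclei passing another gate and to -0.309 among barcodes with 3000 or more UMIs. The deviations of same-numbered mice correlated at r = 0.040 over 9483 genes. Barcodes with 10 to 99 UMIs numbered 2374 (WT) and 3197 (Tg) for replicate 1 and 26482 (WT) and 29471 (Tg) for replicate 2. The labels name no batch, and whether same-numbered mice shared one was not tested. The replicate block gave 456 calls (433 higher, 23 lower), 354 of them shared with the fit without it. DESeq2's size factors gave 346 calls, 341 shared. None of the 13 named genes changed direction under any setting run. All 13 kept their call with DESeq2's size factors, where 341 of the 363 calls were shared, and 11 kept it with the block. With DESeq2 7 kept it (4 lost it and Egfros and Fgf14 had no adjusted p). With the profile of barcodes with 500 up to 1000 UMIs subtracted 4 kept it. It was kept by 10 among barcodes with 3000 or more UMIs and by 6 with 8 or more marker UMIs (2 and 5 lost it, the rest untested). It was kept by 5 thinned to 1500 UMIs, 5 at most 8000 UMIs and 3 without the highest cxds scores (5, 6 and 7 lost it, the rest untested). None kept it without a filter, without nuclei passing another gate (6 lost it, 7 untested) or with the 10 to 99 UMI profile subtracted. Fits without 1 mouse leave a single mouse in a genotype and are not in this tally. With 103 to 249 nuclei per mouse, genes near 10 UMIs carried little weight.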
